A study of Homo sapiens with 6 samples.

Results

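The genes described here are those of the long arm of chromosome 16 (16q) in the human lung cancer line NCI-H1299, derived from a non-small cell carcinoma. They were taken by position and abundance: a start at or beyond 36800000 on chromosome 16 of GRCh38, and at least 60 counts summed over the 6 libraries. MMP2, MT2A and the MT1 metallothioneins were left out by name. Of 35784 genes in the table, 710 start on 16q, 297 of those had fewer counts, 7 were left out by name, and 406 remained. They span 46578591 to 90222846; 298 of them have a protein-coding transcript and 108 have none. Just outside the count limit the highest sum was 56 and just inside it the lowest was 60, against a median sum of 4892 among the members.

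RNA sequencing of total RNA compared 3 libraries of IGF2BP3 knockout cells with 3 libraries of control cells. Knockout cells had received LentiCRISPRv2, a lentiviral vector for Cas9 and a guide RNA, with guides designed against IGF2BP3, which encodes an RNA-binding protein. The control cells are labelled as lentiviral controls and are NCI-H1299 as well. Infected cells were kept under puromycin and grown up from single-cell colonies. The labels do not tie a library to a colony, and do not say whether replicates were grown apart, so p-values here describe the spread between these libraries alone, which may be technical. For the targeted gene, the control libraries gave 58.8, 51.6 and 54.1 CPM (counts scaled for the size of each library), and the knockout libraries gave 39.9, 25.04 and 22.6 CPM. All 3 knockout values lay below all control values (log2 fold change -0.91, SE 0.20, adjusted p = 0.017, edgeR's quasi-likelihood test, Benjamini-Hochberg adjustment, as for each adjusted p below). This call was lost without control replicate 1 (adjusted p = 0.067), control replicate 2 (0.050), control replicate 3 (0.056) or knockout replicate 2 (0.065).

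A chromosome arm is the stretch of DNA from the centromere to one end of a chromosome, and its genes are neighbours that need have no function in common. The long arm of chromosome 16 carries, among others, the E-cadherin gene CDH1, the RNA demethylase gene FTO, the tubulin gene TUBB3 and a cluster of metallothionein genes. Messages of many genes tend to follow the number of DNA copies per cell, and carcinoma lines commonly carry gains and losses of whole arms. DNA was not measured in these libraries, so the number of copies of 16q was not tested.

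The libraries held between 67674223 and 80810319 counts. The floor of 3 counts was 0.0389 to 0.0435 CPM, for counting error only. Knockout replicate 1 and control replicate 3 stood apart from the other libraries of their groups, with chi-square values per degree of freedom of 101 and 109 for the former and 46.6 and 46.2 for the latter. The remaining pairs gave 14.9 in the knockout and 12.3 in the control group. Among the fixed markers the keratins KRT8 and KRT18 of simple epithelia were abundant in both groups, with means of 4752 and 3056 CPM in the controls and 2427 and 1715 CPM in the knockout, and the groups did not overlap. The epithelial marker EPCAM was low, at 3.36 to 4.84 CPM. The part of these markers in the results was not tested. NKX2-1, SFTPB, SFTPC and NAPSA, which mark lung epithelial lineages, were at 2.20 CPM or less in every library. Of the markers of leukocytes, endothelium and fibroblasts in the table, CD3E was at 0 throughout, and PTPRC, PECAM1, CDH5, COL1A2, PDGFRB and DCN did not exceed 0.769 CPM. LYZ reached 2.98 CPM, and the collagen COL1A1 was at 6.02 to 11.3 CPM.

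Promoters of 4 genes on which the results turn are shown first: 3 whose message was lower and HAS3, whose message was higher. Each is the stretch of 250 bases before the RefSeq start on GRCh38.p14, written 5′ to 3′ along the gene's own strand, with the match to the motif named for it in capitals. HERPUD1 encodes a membrane protein of endoplasmic reticulum quality control, and the motif searched was ERSE-II, an element of endoplasmic reticulum stress response genes. PSMB10 encodes a catalytic subunit of the immunoproteasome, and the motif was the core of the interferon-stimulated response element. COX4I1 encodes a subunit of cytochrome c oxidase, and the motif was the ETS core (CCGGAA). HAS3 encodes a hyaluronan synthase, and the motif was the E-box (CACGTG).
HERPUD1, chr16:56931892-56932141, plus strand: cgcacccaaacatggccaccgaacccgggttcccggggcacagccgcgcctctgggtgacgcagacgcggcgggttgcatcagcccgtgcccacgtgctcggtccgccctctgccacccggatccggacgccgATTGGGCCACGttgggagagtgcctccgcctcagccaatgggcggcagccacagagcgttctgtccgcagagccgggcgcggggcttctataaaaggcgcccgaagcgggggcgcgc
PSMB10, chr16:67936851-67937100, minus strand: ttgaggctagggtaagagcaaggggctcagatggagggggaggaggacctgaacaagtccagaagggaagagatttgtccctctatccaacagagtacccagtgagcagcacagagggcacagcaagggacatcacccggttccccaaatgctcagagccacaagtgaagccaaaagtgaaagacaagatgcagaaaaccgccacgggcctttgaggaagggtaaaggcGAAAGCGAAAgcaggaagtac
COX4I1, chr16:85799445-85799694, plus strand: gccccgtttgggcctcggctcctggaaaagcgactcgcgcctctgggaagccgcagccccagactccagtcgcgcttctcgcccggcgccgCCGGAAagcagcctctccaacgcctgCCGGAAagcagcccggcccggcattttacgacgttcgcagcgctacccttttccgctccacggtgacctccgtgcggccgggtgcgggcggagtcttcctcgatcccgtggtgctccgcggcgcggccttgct
HAS3, chr16:69107290-69107539, plus strand: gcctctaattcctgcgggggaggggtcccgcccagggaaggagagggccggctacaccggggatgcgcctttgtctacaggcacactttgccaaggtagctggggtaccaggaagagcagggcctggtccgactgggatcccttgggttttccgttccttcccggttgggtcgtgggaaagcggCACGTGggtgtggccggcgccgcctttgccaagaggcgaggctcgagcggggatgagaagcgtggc
The letters searched are those in capitals, with the base in the middle left free in ERSE-II and the 2 bases in the middle left free in the interferon element. The RefSeq starts of COX4I1 and HAS3 differ from the starts in the deposited table, so that both windows lie inside the gene spans given below. Both strands were searched in windows of 250 bases. The match begins 117 bases before the start in HERPUD1, 21 in PSMB10 and 66 in HAS3, and COX4I1 has 2 matches, at 159 and 133 bases. ERSE-II was present in 18 of 35116 RefSeq promoters of this length (0.0513%), and in 2 of the 326 promoters of 235 member genes. The interferon element was present in 3.02% of all promoters and 0.307% of member promoters. The ETS core was present in 14.5% of all and 23.6% of member promoters, and the E-box in 6.34% and 9.82%. These letters describe the windows; binding of a factor was not measured.

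The first question was how far the genes of 16q moved together. FTO, an N6-methyladenosine demethylase encoded from 53701692 to 54158512 on the plus strand, gave 57.6, 56.7 and 54.5 CPM in control cells against 31.7, 38.0 and 35.2 CPM after knockout. The groups did not overlap, and the knockout mean was 62.2% of the control mean (log2 fold change -0.69, SE 0.09, adjusted p = 0.0017, edgeR). COX4I1 (85798633 to 85807068, plus strand) gave 257, 259.7 and 277 CPM in control cells against 201, 181 and 172 CPM after knockout. Again no knockout library reached a control (log2 fold change -0.52, SE 0.08, adjusted p = 0.0050, edgeR). PSMB10 (67934506 to 67936847, minus strand) gave 24.4, 21.7 and 23.3 CPM against 11.8, 10.2 and 9.14 CPM (log2 fold change -1.15, SE 0.13, adjusted p = 8.8e-04, edgeR). HERPUD1 (56932142 to 56944864, plus strand) gave 65.4, 69.0 and 91.6 CPM in control cells, where replicate 3 was the highest, against 34.5, 27.8 and 26.6 CPM. Its log2 fold change was -1.35 (SE 0.15, adjusted p = 0.0011, edgeR), the largest fall of these 4 genes. Genes in the annotation overlap FTO and COX4I1 on the opposite strand, and the strand setting of the counting is not given in the sources used here.

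**Figure D1:**
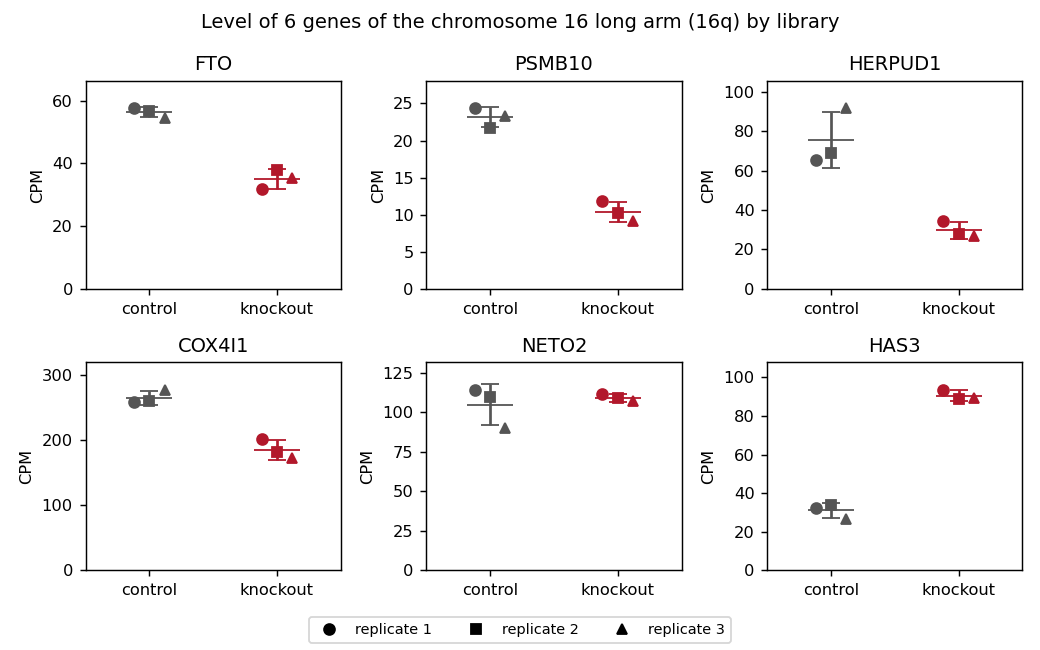
Level in CPM (linear axis from 0) of 6 genes of 16q in each library, control at left and knockout at right; symbols mark replicates 1 to 3 and bars the group means. In FTO, COX4I1, PSMB10 and HERPUD1 every knockout library lies below every control library.

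Across the arm, 159 of 401 tested members fell and 3 rose, while 239 were not called. The share that fell was 39.7%, beside 11.5% of all 20134 tested genes, and the share that rose was 0.748%, beside 8.21%. In 232 members (57.9%) every knockout library was below every control, beside 21.5% of all tested genes. In 6 members (1.5%) every knockout library was above, beside 19.7%. The median log2 fold change of the members was -0.51, which is 70.2% of the control level, with quartiles of -0.82 and -0.25, and 87.5% of them had a value below 0. The median of all tested genes was 0.01. Against a minimum fold of 1.5, 26 members fell, beside 3.33% of all tested genes. With 1 library left out at a time, between 111 (control replicate 1 out) and 185 (knockout replicate 1 out) members fell, and 104 of the 159 passed in every such fit.

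The shift was present in each knockout library. Over 282 members of at least 1 CPM, the median log2 ratio to the control mean was -0.47, -0.51 and -0.52 in knockout replicates 1, 2 and 3. For genes outside chromosome 16 it was 0.04, 0.01 and 0.00. Members took 1.81%, 1.78% and 1.88% of all counts in the control libraries and 1.26% in each knockout library. The knockout share was 69.2% of the control share. In bulk RNA, less message per cell in all cells and loss of the message from a part of the cells cannot be told apart.

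The short arm, 16p, showed a like shift. Of 528 tested 16p genes chosen by the same count sum, 210 fell and 3 rose, with a median log2 fold change of -0.47. Its share of counts was 2.10% ± 0.00469 in controls and 1.54% ± 0.0461 in the knockout (SD, n = 3). The 22 other chromosomes, with X and without Y or the mitochondrial genome, had medians between -0.06 on chromosome 9 and 0.16 on chromosome 19. Between 5.94% and 17.3% of their tested genes fell. The mitochondrial genome had 37 tested genes with a median of -0.15, of which 0 fell and 0 rose. Chromosome Y stood apart in the other direction: 20 of its 25 tested genes rose and 0 fell. Its median log2 fold change was 5.38, with quartiles of 4.75 and 6.65, a far larger shift than that of 16q. The cause of the difference on chromosome Y was not tested. Medians of 16q and 16p were both below the range of the 22, and the difference between the arms was not tested.

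Along 16q the median log2 fold change was below 0 in every window of 5 Mb that held members. In 8 windows of 5 Mb with at least 20 tested members, the median log2 fold change lay between -0.64 (50 to 55 Mb, 27 members) and -0.40 (80 to 85 Mb, 35 members). The densest window, from 65 to 70 Mb, held 105 members, of which 44 fell and 2 rose, with a median of -0.49. Between 75 and 80 Mb, 11 of 20 members fell. The window from 60 to 65 Mb, with a median of -0.70, and the last one from 90 Mb, with -0.17, held 6 members each and are thin. In the last window 3 of the 6 had a value below 0. A median over 25 neighbouring genes of at least 1 CPM stayed below 0 wherever it could be formed, which leaves out the outermost genes at each end.

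**Figure D2:**
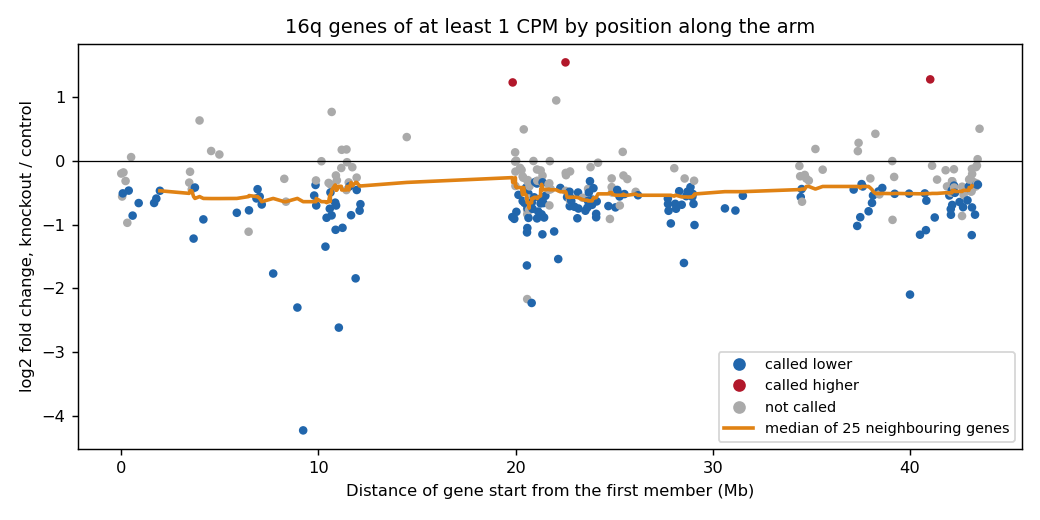
log2 fold change of each 16q gene of at least 1 CPM against the distance of its start from the first member in Mb; blue points were called lower, red higher, grey not called. The orange line, the median of 25 neighbouring genes, stays below 0 where it is drawn and does not reach the outermost genes.

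Whether the difference depended on how abundant a message was could be read from 4 classes of mean CPM. In the 35 members of 100 CPM or more, 27 fell and 0 rose, the median log2 fold change being -0.53 and the quartiles -0.71 and -0.41. In the 171 members from 10 to 100 CPM, 106 fell and 1 rose, with a median of -0.48, and quartiles of -0.69 and -0.29. In the 76 members from 1 to 10 CPM, 20 fell and 2 rose, with a median of -0.51. These 3 medians lay close together, while the spread between genes was narrower in the more abundant classes. The 119 members under 1 CPM had a median of -0.61, an interquartile range of 1.04 against 0.296 in the most abundant class, and 6 falls.

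The share of members that fell ran from 5.04% under 1 CPM to 77.1% at 100 CPM or more. Outside chromosome 16 the shares that fell in the same 4 classes were 3.42%, 12.3%, 12.7% and 13.0%, with medians from 0.00 to 0.05. Over the 401 members Spearman's rho between mean level and log2 fold change was 0.04, and over the 206 members of at least 10 CPM it was -0.12. These are descriptions across genes that share libraries, and genes are not independent replicates. Protein-coding members fell in 150 of 298 cases, with a median of -0.51, and members without a protein-coding transcript in 9 of 103, with a median of -0.50. The latter 9 included the long noncoding RNA LINC00920, from 4.12 to 2.24 CPM, and the pseudogenes SMG1P7 and PDPR2P, which share sequence with other loci; the 3 were picked after their values were seen. Of the tested members 207 overlap a gene on the opposite strand, with a median of -0.50, and 194 do not, with a median of -0.51.

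**Figure D3:**
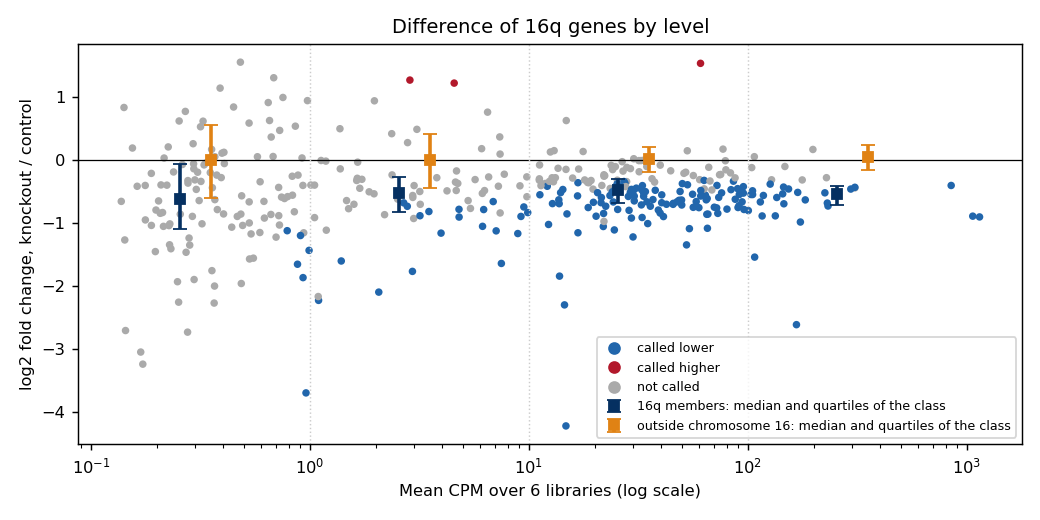
log2 fold change of 16q genes against mean CPM on a log axis, coloured by call, with squares and bars for the median and quartiles of each level class on 16q and outside chromosome 16. The 16q medians run from -0.61 to -0.48 while the medians outside stay between 0.00 and 0.05, and the scatter widens towards low levels.

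Compared per kilobase of gene, the most abundant 16q message was NQO1, a quinone reductase, at 472 ± 4.11 FPKM in the controls and 258 ± 11.4 FPKM in the knockout (SD, n = 3). Next came SLC7A5, the light chain of a large neutral amino acid transporter, at 273 ± 60.8 and 149.9 ± 22.2 FPKM, and RPL13, a protein of the large ribosomal subunit, at 235 ± 16.5 and 182 ± 7.48 FPKM. In CPM the SLC7A5 controls were at 1207, 1196 and 1743, with replicate 3 the highest, against 918, 642 and 679 after knockout. GOT2, the mitochondrial aspartate aminotransferase, was at 71.4 and 45.3 FPKM, and the proteasome lid subunit PSMD7 at 56.9 and 38.4 FPKM. These genes were chosen by level alone, and each of them fell on the count scale, NQO1 with a log2 fold change of -0.90 (adjusted p = 2.5e-04, edgeR) and RPL13 with -0.40 (adjusted p = 0.023, edgeR). RPL13 has processed copies that can share its reads.

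The second question was which genes escaped the shared fall. Among the 206 members of at least 10 CPM, 181 had a log2 fold change between -1 and 0, 14 were at -1 or lower and 11 were at 0 or above. The 95% interval of the log2 fold change held the median of the members in 127 genes, and in 114 of those it held that median and not 0. It lay above the median in 39 genes, of which 31 also held 0, 5 were below 0 and 3 were above 0. It lay below the median in 40 genes. This grouping by intervals was added after the data had been seen.

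HAS3 (69105653 to 69117660, plus strand), the hyaluronan synthase whose promoter is printed above, was the largest rise among members of at least 5 CPM. Control libraries gave 32.3, 34.0 and 26.8 CPM, and knockout libraries 93.7, 88.6 and 89.3 CPM. The groups were far apart, the knockout mean being 2.91 times the control mean (log2 fold change 1.54, SE 0.10, 95% interval 1.31 to 1.77, adjusted p = 9.3e-05, edgeR). BEAN1, a membrane protein that binds the ubiquitin ligase NEDD4, gave 3.09, 3.04 and 2.04 CPM against 5.65, 6.42 and 7.10 CPM (log2 fold change 1.23, SE 0.22, adjusted p = 0.0070, edgeR). The groups did not overlap, but the rise did not pass against a minimum fold of 1.5 (adjusted p = 0.057). JPH3, a junctophilin that ties the endoplasmic reticulum to the plasma membrane, was below 5 CPM and is named after its value was seen. It gave 1.57, 2.01 and 1.43 CPM against 3.88, 3.99 and 4.28 CPM (log2 fold change 1.28, SE 0.21, adjusted p = 0.0053, edgeR). These 3 rises passed in every fit that left out 1 library, and 6 members rose without knockout replicate 1. Genes overlap BEAN1 and JPH3 on the opposite strand, but none overlaps HAS3 there.

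Of the genes next to the 3 rises, none rose. On one side of HAS3 lie CDH1 and TANGO6, with log2 fold changes of -1.54 and -0.43, both called. On the other side lie CHTF8 and DERPC, with -0.47 and -0.19, neither called, which start at the same position, so that their reads can be confused. BEAN1 is followed by the mitochondrial thymidine kinase TK2, which fell by 0.91 on the log2 scale, and then by CKLF, at 0.13 and not called. On its other side lie tested members of low level, among them the cadherins CDH11 and CDH8. Their means were under 1 CPM in both groups, with log2 fold changes of -1.45 and -1.34, neither called. The more abundant members GOT2 and SLC38A7 start more than 7720 kb from BEAN1 and fell by 0.68 and 0.78. JPH3 lies between ZCCHC14, which fell by 0.63, and KLHDC4, at -0.08 and not called; MAP1LC3B and SLC7A5, one gene further out on each side, fell by 1.09 and 0.89. All of these neighbours were taken by position, and apart from CDH11 and CDH8 members of low level were passed over.

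A larger number of genes lay near no difference. The 6 abundant protein-coding members closest to 0 were NUP93, NETO2, TUBB3, NAE1, RFWD3 and NUTF2, none of which was called. NUP93, a scaffold protein of the nuclear pore, had control and knockout means of 79.1 ± 11.4 and 78.8 ± 6.29 CPM (SD, n = 3; log2 fold change -0.01, 95% interval -0.28 to 0.27). NETO2, an auxiliary subunit of kainate receptors, was at 105 ± 12.8 and 109 ± 2.40 CPM (log2 fold change 0.06, 95% interval -0.17 to 0.28). NAE1, a subunit of the NEDD8-activating enzyme, was at 68.8 ± 4.52 and 63.7 ± 1.97 CPM, with an interval from -0.29 to 0.06. NUP93 gave 85.3, 86.2 and 65.9 CPM in the control libraries against 86.0, 74.3 and 76.0 CPM after knockout. Control replicate 3 was the lowest control library in all 6 of these genes. The intervals of NUP93, NETO2 and NAE1 hold 0 and lie wholly above the -0.51 of the arm. TUBB3, the neuronal beta-tubulin, differed within the knockout group, with 226 CPM in replicate 1 against 99.5 and 102 CPM in replicates 2 and 3, while the controls were at 158, 164 and 136 CPM. Without knockout replicate 1, TUBB3 fell (log2 fold change -0.59, adjusted p = 0.0027, edgeR), and so did NUTF2, a nuclear transport factor (log2 fold change -0.24, adjusted p = 0.035, edgeR).

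Among members of at least 10 CPM, the genes with an interval wholly above 0, apart from HAS3, were NKD1, an inhibitor of Wnt signalling, and USB1, which trims the end of U6 small nuclear RNA. They were singled out after their values were seen, and neither passed. NKD1 had means of 11.6 ± 1.23 CPM in control and 18.0 ± 4.76 CPM in knockout cells (SD, n = 3; adjusted p = 0.067, edgeR). USB1 was at 72.3 ± 1.26 and 81.7 ± 3.25 CPM (adjusted p = 0.10, edgeR).

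At the other end were genes that fell much further than the arm. CES1, a carboxylesterase, gave 29.4, 23.7 and 31.0 CPM in control cells against 1.95, 0.312 and 2.20 CPM after knockout. No library of the knockout came near a control, and the mean was 18.8-fold lower (log2 fold change -4.23, SE 0.57, adjusted p = 0.0022, edgeR). ADGRG1, an adhesion G protein-coupled receptor, gave 286, 275 and 298 CPM against 79.8, 29.6 and 30.9 CPM. Replicate 1 was the highest knockout library and was still far below the controls (log2 fold change -2.62, SE 0.37, adjusted p = 0.0028, edgeR). LPCAT2, a lysophosphatidylcholine acyltransferase, fell from 24.2 ± 0.731 to 4.90 ± 1.17 CPM (SD, n = 3). NDRG4, of the NDRG family, fell by 1.84 on the log2 scale, from 21.6 ± 0.764 to 6.02 ± 0.338 CPM (adjusted p = 6.3e-05, edgeR). CES1 has a neighbouring pseudogene that can share its reads.

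E-cadherin, encoded by CDH1, holds epithelial cells together. CDH1 gave 156, 150.3 and 173 CPM in control cells against 33.8, 66.1 and 64.99 CPM after knockout. All knockout libraries were below all controls, with replicate 1 the lowest (log2 fold change -1.54, SE 0.23, adjusted p = 0.0038, edgeR). The other large falls among members of at least 5 CPM included HERPUD1, given above. The rest were the glycosyltransferase B3GNT9 (log2 fold change -1.64), the adenylyl cyclase ADCY7 (-1.22), the endosomal protein VPS9D1 (-1.17) and C16orf95 (-1.16). The call of C16orf95 was lost without control replicate 1 (adjusted p = 0.052), control replicate 3 (0.056) or knockout replicate 3 (0.051).

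LPCAT2 and CES1 are next to each other among the more abundant tested genes, with starts 294 kb apart. The next such gene on the LPCAT2 side is MMP2, left out of the members. It starts 119 kb from the LPCAT2 start and had a log2 fold change of -4.53. NDRG4 had no such neighbours: GINS3 and SETD6, on either side of it, were at -0.10 and -0.26, neither of them called.

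Knockout replicate 1 differed from the other knockout libraries in a small group of members. Its level was more than 0.5 on the log2 scale away from the mean of replicates 2 and 3 in 12 of 206 members of at least 10 CPM, while replicates 2 and 3 differed by as much in 2. It was higher in ADGRG1 and TUBB3, by 1.40 and 1.17 on the log2 scale. It was lower in CDH1, by -0.96, and in the membrane-bound metalloproteinase MMP15, by -0.95, where it stood at 16.3 CPM against 30.1 and 33.0 CPM. These genes were listed after their values were seen.

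The third question was which functions were reduced with the arm. Of 180 genes in 11 lists of 16q genes, 169 were tested, of which 103 fell, 1 rose and 65 did not pass, with a median log2 fold change of -0.52. The other 232 tested members included 56 falls and 2 rises, with a median of -0.48. The shares that fell were 60.9% and 24.1%, in sets that were not matched for level. Beside them, 11.5% of all tested genes fell. Among all tested members the share was 62.0% from 10 to 100 CPM and 77.1% at 100 CPM or more. The counts of each list are to be read beside these shares, and no list was tested against them. The lists were drawn up by function, with earlier results of these data known.

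Genes of ubiquitin and the proteasome, which mark and degrade proteins, fell in 13 of 16 cases with a median of -0.63, and 11 of the 13 passed in every fit that left out 1 library. Beside PSMB10 and HERPUD1 they included PSME3IP1, a partner of the proteasome activator PSME3 (log2 fold change -0.75, adjusted p = 3.9e-04, edgeR), and the ligase WWP2 (-0.75, adjusted p = 0.0011). Genes of endosomes, lysosomes and autophagy fell in 12 of 15 cases with a median of -0.52. MAP1LC3B, the LC3 protein of the autophagosome membrane, fell from 73.5 ± 12.9 to 34.6 ± 1.32 CPM (SD, n = 3; adjusted p = 0.0011, edgeR), or by 1.09 on the log2 scale. Control replicate 3 was the highest library of MAP1LC3B, at 88.1 CPM against 68.8 and 63.7 CPM in control replicates 1 and 2. MON1B and VAC14, which act in endosome maturation, and VPS9D1 fell by 0.75, 0.64 and 1.17 on the log2 scale.

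Genes of the endoplasmic reticulum and Golgi fell in 11 of 13 cases with a median of -0.52. GLG1, a Golgi membrane glycoprotein, fell from 231 ± 4.72 to 117 ± 4.71 CPM (SD, n = 3; adjusted p = 1.3e-04, edgeR), or by 0.98 on the log2 scale. MBTPS1, the site-1 protease that activates SREBP and ATF6, fell from 173 ± 11.8 to 93.8 ± 2.33 CPM (adjusted p = 3.1e-04, edgeR), or by 0.88 on the log2 scale. The Golgi tethering subunit COG8 and the dynein light intermediate chain DYNC1LI2 fell by 0.71 and 0.53 on the log2 scale. Among mitochondrial and iron-sulfur genes 11 of 16 fell, with a median of -0.64. COQ9, which serves coenzyme Q synthesis, had means of 88.8 ± 2.07 and 41.9 ± 3.43 CPM (log2 fold change -1.08, SE 0.08, adjusted p = 1.7e-04, edgeR). The pyruvate dehydrogenase phosphatase regulator PDPR, which has near copies on chromosome 16, the malonyl-CoA decarboxylase MLYCD and the protease subunit SPG7 fell by 0.78, 1.02 and 0.62.

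Genes that make, process and export mRNA fell in 10 of 16 cases with a median of -0.44, and 5 of those passed in every fit that left out 1 library. With FTO they included the cap methyltransferase CMTR2 (-0.71), the decapping scaffold EDC4 (-0.63) and the nuclear RNA factor ZC3H18 (-0.54). NUP93 and USB1, described above, are on the same list. Genes of ribosome assembly and transfer RNA fell in 6 of 13 cases with a median of -0.40. Their 4 clearest falls were the helicase DDX28 (-0.89), the tRNA deaminase ADAT1 (-0.68), the dihydrouridine synthase DUS2 (-0.66) and NOB1 (-0.50), a nuclease of small subunit maturation.

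Of DNA replication, telomere and centromere genes 4 of 13 fell (30.8%), with a median of -0.24. The telomere proteins TERF2IP and TERF2 fell by 1.01 and 0.58 on the log2 scale, and the kinase CDK10 by 0.46. The call of CDK10 was lost without control replicate 1 (adjusted p = 0.059), control replicate 2 (0.050) or knockout replicate 3 (0.053), and that of ACD, the fourth gene, without any library other than knockout replicate 1 (adjusted p from 0.087 to 0.15). GINS2 and GINS3 of the replicative helicase were at 0.00 and -0.10 and ORC6 of the origin complex at -0.18, none called. GINS2 changed its sign with the processing. Whether this list differed from the others was not tested.

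Among transcription factors and chromatin genes 15 of 25 fell, with a median of -0.57. TCF25 (log2 fold change -0.84, adjusted p = 3.6e-04, edgeR), the chromatin remodeller CHD9 (-0.78, adjusted p = 4.8e-04), the homeobox factor ZFHX3 (-0.54, adjusted p = 0.0018) and the osmotic stress factor NFAT5 (-0.72, adjusted p = 0.0019) had the smallest adjusted p. The homeobox gene IRX3, singled out after its value was seen, fell further, by 1.77 on the log2 scale, from 4.54 to 1.33 CPM (adjusted p = 0.0031, edgeR). Transporters and metabolic enzymes fell in 11 of 16 cases with a median of -0.66. They included LPCAT2 and NQO1, the carboxylesterase CES2 (-0.63) and CYBA, a subunit of NADPH oxidases (-0.76). Innate immunity and cell death genes fell in 5 of 9 tested cases with a median of -0.89. They included ADCY7, NOL3, an inhibitor of apoptosis (-1.05), TRADD, an adaptor of the TNF receptor (-1.12), and the MHC class I activator NLRC5 (-0.89). The call of NLRC5 was lost without control replicate 1 (adjusted p = 0.051) or control replicate 2 (0.064). This list was mixed, with 66.7% of its tested genes below 0, beside 87.5% of all tested members. IRF8, PLCG2 and CKLF had log2 fold changes of 1.56, 0.18 and 0.13, none called. IRF8 and CX3CL1 (-1.05, not called) had means under 1 CPM in both groups.

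Adhesion, cell shape and matrix genes were the most mixed list, with 5 falls and 1 rise among 17 and a median of -0.14. HAS3 is the rise and CDH1 one of the falls. The transmembrane protein CMTM4 fell from 128 to 73.3 CPM and the formin FHOD1 from 53.5 to 28.8 CPM, with log2 fold changes of -0.80 and -0.90. The list's range ran from -3.70 for the cadherin CDH16, singled out after its value was seen, to 1.54 for HAS3 and was wider than that of the other 10 lists. CDH16 was low in both groups, with means of 1.78 ± 0.405 and 0.134 ± 0.118 CPM.

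**Figure D4:**
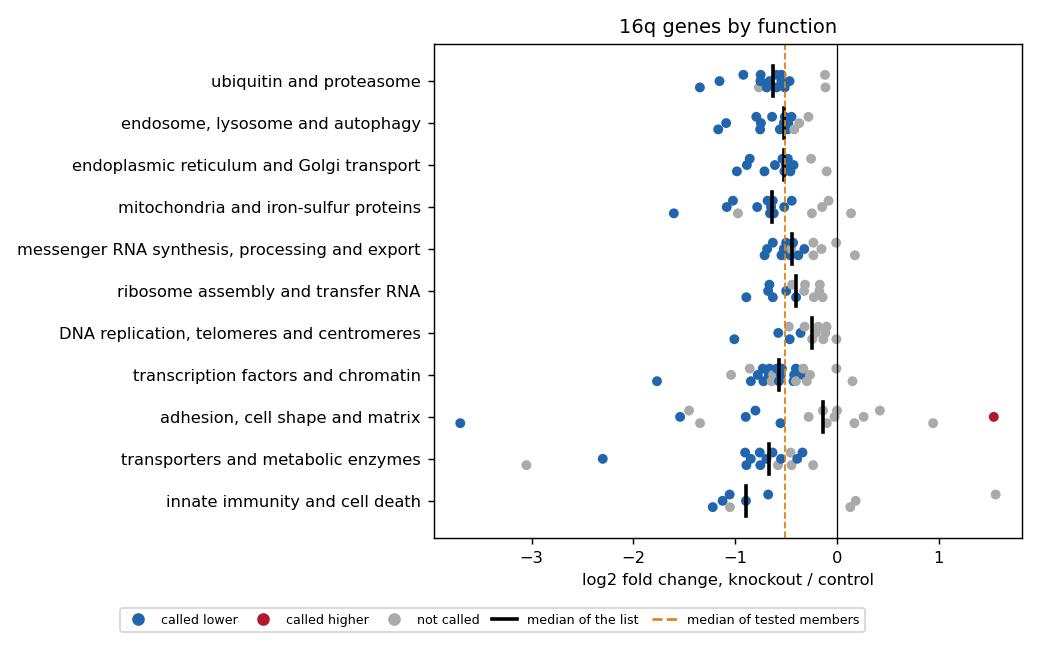
log2 fold change of each tested 16q gene in 11 function lists, coloured by call; black bars are list medians, the dashed line is the median of all tested members and the thin line is 0. Most lists centre between -0.66 and -0.40. Adhesion at -0.14 and DNA replication at -0.24 lie nearer 0, and innate immunity and cell death at -0.89 lies further from it.

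Many of these genes encode 1 or a few subunits of a complex that also has subunits encoded on other chromosomes. Only subunits encoded off chromosome 16 were set beside them, so a subunit on 16p is not counted, and the sets need not be whole complexes. In 17 complexes, 23 tested subunits are encoded on 16q; 15 of them fell and 0 rose, with a median log2 fold change of -0.46. Of 135 subunits encoded elsewhere, 22 rose and 3 fell (PSMB8, COG3 and the RNA polymerase II subunit POLR2A), with a median of 0.18. The shares that fell were 65.2% on 16q and 2.22% elsewhere, beside 11.5% of all tested genes. The shares that rose were 0% and 16.3%, beside 8.21%. These sets were not matched for level. Among tested members 62.0% fell from 10 to 100 CPM and 77.1% at 100 CPM or more. Outside chromosome 16 the shares that rose in these classes were 11.4% and 12.8%, and the shares that fell were 12.7% and 13.0%. All 23 subunits on 16q had a value below 0. Values below 0 made up 87.5% of all tested members. The share was 94.7% in members from 10 to 100 CPM and 94.3% at 100 CPM or more. In each of the 17 complexes the median of the subunits elsewhere lay above every 16q subunit. The 2 sets were measured in the same libraries, and the difference between them was not tested.

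In the proteasome, PSMD7 fell from 163 ± 1.76 to 108 ± 9.90 CPM (SD, n = 3; adjusted p = 0.0026, edgeR), or by 0.59 on the log2 scale, and PSMB10 as given above. Of 32 subunits elsewhere, 8 rose and 1 fell, with a median of 0.29. The fall was PSMB8, another catalytic subunit of the immunoproteasome, at -0.61, while PSMB9, the third, was at 0.16 and not called. In cytochrome c oxidase, 0 of 10 subunits elsewhere rose or fell and their values ran from -0.20 to 0.15, beside the -0.52 of COX4I1. In shelterin, which caps telomeres, TERF2, TERF2IP and ACD on 16q were at -0.58, -1.01 and -0.36, and the 3 subunits elsewhere, TERF1, TINF2 and POT1, were at -0.04, -0.11 and -0.14, with 0 called.

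In the COG complex of Golgi tethering, COG4 and COG8 fell by 0.61 and 0.71 on the log2 scale, and 1 of 5 subunits elsewhere, COG3, fell by 0.85. The V-ATPase subunit ATP6V0D1 fell by 0.75, against a median of 0.04 for 12 subunits elsewhere. The retromer subunit VPS35 fell by 0.51, against a median of 0.11 for the other 3. NUDT21 of cleavage factor I fell by 0.38 and AP1G1 of the AP-1 adaptor by 0.46, with medians elsewhere of 0.24 and 0.39. The splicing factor SF3B3 (-0.43), the deadenylase scaffold CNOT1 (-0.46) and the exosome subunit EXOSC6 (-0.63) fell as well. The call of SF3B3 was lost without control replicate 1 or 2 or knockout replicate 2 or 3 (adjusted p from 0.089 to 0.11), that of CNOT1 without control replicate 2 (0.051) and that of EXOSC6 without control replicate 1 (0.060).

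In 6 complexes no 16q subunit was called. GINS2 and GINS3 were at 0.00 and -0.10, where GINS1 and GINS4, encoded elsewhere, were at 0.67 (adjusted p = 0.048, edgeR) and 0.33 (adjusted p = 0.11, edgeR). For GINS2 and GINS3 control replicate 3 was the lowest control library, as given above. The kinetochore proteins CENPN and CENPT were at -0.24 and -0.32, against a median of 0.38 for 11 proteins elsewhere, of which 3 rose. ORC6, NAE1, EMC8 and POLR2C were at -0.18, -0.11, -0.25 and -0.23, with medians elsewhere of 0.07, 0.11, 0.17 and 0.19. Without knockout replicate 1, CENPN, CENPT, EMC8 and POLR2C passed (adjusted p from 0.012 to 0.029, edgeR), with log2 fold changes between -0.38 and -0.28.

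**Figure D5:**
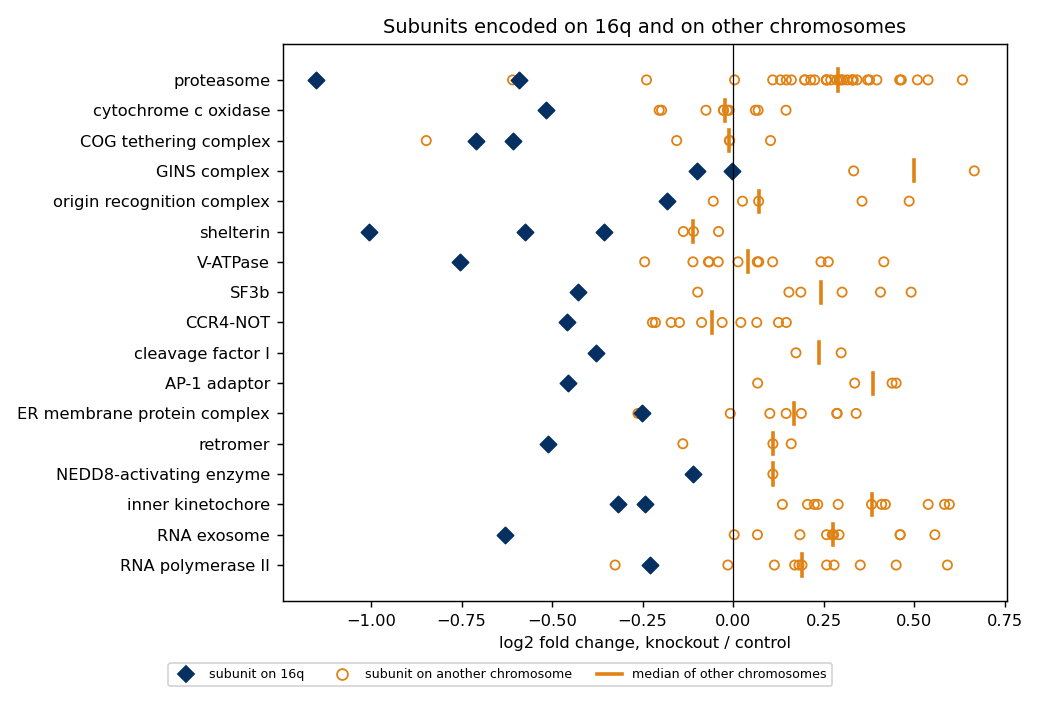
log2 fold change of subunits of 17 complexes; dark diamonds are subunits encoded on 16q, open orange circles subunits encoded on other chromosomes, and orange bars the medians of the latter. All 23 diamonds lie below 0, and each lies below the orange bar of its complex.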

How the data were processed

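Total RNA of 6 NCI-H1299 libraries had been sequenced, and libraries were grouped by their labels. The deposited table gives whole read counts per gene, not normalized, and FPKM, in which the authors divided by gene length and sequencing depth. The submitters' processing notes name Cutadapt, HISAT2 2.0.4, StringTie 1.3.4d, edgeR and GRCh38; the Cutadapt version, annotation release and strand setting were not given in the sources used here. Between 69.9% and 71.0% of the counts from 4 to 10 were even numbers, so mates of a pair appear to be counted separately.

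After a filter on low counts (filterByExpr with a minimum of 10, and 15 in total) and TMM scaling, 20134 genes were tested with edgeR 4.0.16 in R 4.3.3, genotype being the only term; a call is a Benjamini-Hochberg adjusted p under 0.05. CPM and standard errors come from this fit. The main edgeR fit was tried on simulated data, and the alternatives were not. Alternatives used other filters, scalings and tests, among them limma 3.58.1 on log2(FPKM + 1) and DESeq2 1.42.0, the replicate number as a block, and each library left out.

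Members and lists were chosen with earlier results of these data known. Named genes are the 4 markers, IGF2BP3, up to 10 largest falls and rises among called members (those with a symbol, separate groups and 5 CPM or more in the higher one), up to 4 called genes with the smallest adjusted p in each list, the 16q subunits of the complexes, and the 6 protein-coding members of at least 50 CPM closest to no difference. Others are named by position, by level or after their values were seen, as stated. Promoter sequences are from RefSeq on GRCh38.p14. Of the 406 members, 5 did not pass the filter and were not tested. Some results are not reported here.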

Additional observations from a re-analysis of the deposited data

How the results depend on the processing

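Of 1106 values of 74 single genes under the alternatives, 1011 kept their direction and their side of the threshold. No gene with a call reversed. The median log2 fold change of the members was -0.39 on FPKM (234 members tested), -0.48 after quantile normalization, and -0.53 to -0.51 with each library left out. The number of 16q members called lower was 26 against a minimum fold of 1.5, and 111 to 185 with each library left out; with other scalings, filters and tests it was between 141 (no filter) and 187 (DESeq2). The number that rose was 3 to 6 with each library left out, 6 being without knockout replicate 1. IGF2BP3 stayed at -0.91 against a minimum fold of 1.5 but did not pass (adjusted p = 0.25), and it ran from -1.20 to -0.75 with each library left out. With a mean in place of the median, the class of 100 CPM or more was at -0.60, and the windows from 55 Mb and 70 Mb were at -0.66 and -0.68. Replicate numbers did not pair the libraries: residual correlations of same-numbered libraries were -0.0046, -0.072 and -0.058, and no library correlated best with its own number. With the replicate block 143 members fell and 3 rose, with a median of -0.52; of the named genes ACD lost its call (adjusted p = 0.12). ACD also lost it with DESeq2-type size factors, quantile normalization and no filter (adjusted p from 0.054 to 0.080), and SF3B3 with no filter (0.054). Depth limits the 119 members under 1 CPM, where 6 passed. The cause of these changes was not tested.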
